A study of Arabidopsis thaliana with 6 samples.

Results

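The genes described here encode parts of the ribosome, factors of translation and proteins of the nucleolus. They were chosen from the authors' deposited tables of transcripts called up or down between a pair of Arabidopsis thaliana genotypes. A member is a probe set in either table that is assigned to 1 gene and carries at least 1 of 5 Gene Ontology terms: translation, ribosome, ribonucleoprotein complex, nucleolus or ribosome biogenesis. This gave 35 genes out of 567 listed probe sets, 34 of them among the 226 listed as down and 1 among the 341 listed as up.

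The plants compared were 4 weeks old and had all been exposed to 200 mM NaCl for 3 h. One genotype was an overexpression line of the NAC transcription factor gene ANAC069 (OE, line OE-3), and the other a knockout line with a SALK insertion in it (KO, line KO-2). Total RNA was hybridised to 3 ATH1 arrays per genotype, described as independent biological replicates, and each genotype is represented by 1 line. The promoter that drives ANAC069 in OE, and the organ sampled, are not given in the sources used here. Untreated and wild-type plants were not analysed here, so every value is a difference between OE and KO under salt.

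Ribosomes consist of a large and a small subunit, each built from ribosomal RNA and many proteins. Their assembly starts in the nucleolus, where ribosomal RNA is transcribed, cut and chemically modified with the help of small nucleolar ribonucleoproteins (RNPs), helicases and GTPases. In plants each ribosomal protein is usually encoded by several paralogous genes, and transcripts of ribosomal and nucleolar proteins are abundant in growing, dividing tissue. Initiation and elongation factors and aminoacyl-tRNA synthetases then serve the assembled ribosome.

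The ANAC069 transcript had signals of 2991, 2386 and 2360 in OE against 386, 364 and 391 in KO, so the order of the genotypes matched their labels. Without wild-type arrays these values do not show how far the transcript was lost in KO. Signals are MAS5 values on a linear scale, which the authors had scaled to a similar trimmed mean on each array. The median signal of an array lay between 150 and 159 in OE and between 162 and 186 in KO. Of 17 marker loci of leaf, root, flower, seed and dividing cells, 0 had a single-gene probe set in the authors' up or down tables. Their levels were not looked up beyond those tables, so the tissue was not checked. In such bulk RNA, fewer cells of a type and less RNA per cell cannot be told apart.

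The members were selected because they differed between these same arrays. In the authors' deposited tables their fold was at least 2.004 (RACK1C) and their unadjusted p at most 0.0493 (AT1G76600), at the edges of the limits that the listed probe sets met. Just inside the fold limit stood RACK1C and eIFiso4G2, at 2.004 and 2.02 in the authors' deposited table. Members just outside cannot be shown, since probe sets beyond the tables were not named here. The differences between OE and KO below are therefore a description of the chosen genes. The roles were read from the same ontology annotation as the selection, and the p limit favoured genes with little spread within a genotype.

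All 34 genes of the down table had lower signals on each OE array than on each KO array, and the gene of the up table, AT1G76600, had higher ones. Among the 15922 probe sets tested, each OE array lay below each KO array in 18.3%, and above in 12.9%. The separation was narrow for many genes: the lowest KO signal exceeded the highest OE signal by a factor of 1.09 (eIFiso4G2) to 1.90 (AT4G30330), with a median of 1.36. Of the 35 genes, 17 are annotated as structural constituents of the ribosome, 3 as further translation proteins, 5 as ribosome biogenesis or RNP proteins, and 10 by the nucleolus term alone.

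**Figure D1:**
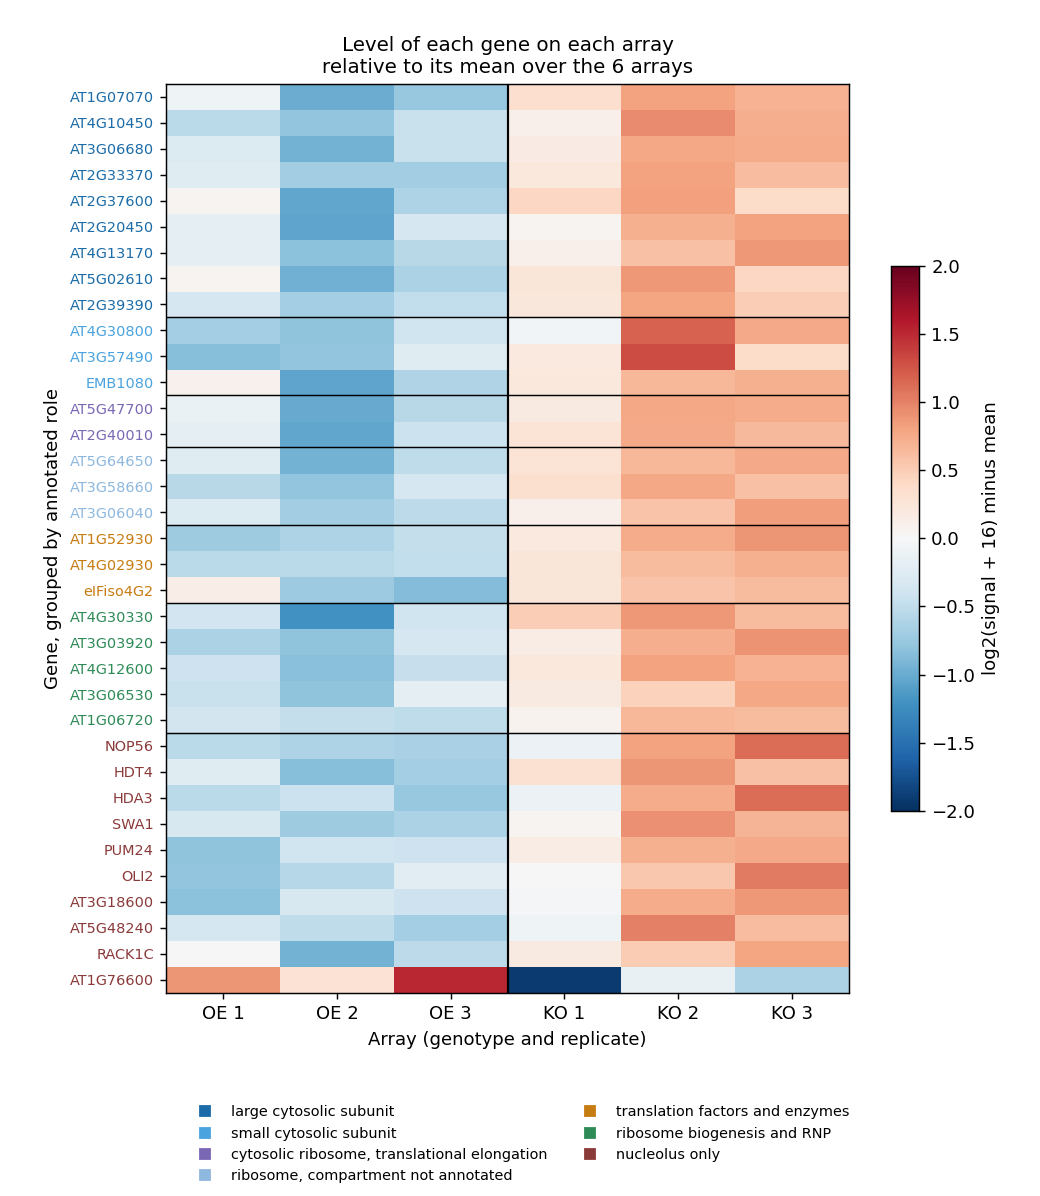
Log2(signal + 16) of each of the 35 genes (rows, grouped by annotated role) on each of the 6 arrays (columns, OE left of KO), shown as the difference from the gene's mean over the 6 arrays. The 34 genes listed as down are lower on all OE arrays than on all KO arrays, with KO replicate 1 the palest KO column, and AT1G76600 shows the opposite.

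The large cytosolic subunit was represented by 9 genes, all lower in OE. AT4G10450 (chromosome 4, 6463200 to 6464458, minus strand, in the authors' alignment, whose genome build the labels do not state) had signals of 583, 490 and 626 in OE against 921, 1668 and 1434 in KO. Its highest OE array was well below its lowest KO array, and the log2 fold change, OE over KO, was -1.19 (SE 0.22, n = 3 arrays per genotype). AT1G07070 had signals of 217, 108 and 129 in OE and 294, 416 and 382 in KO, with a log2 fold change of -1.22 (SE 0.25). Here OE replicate 1 came closest to the KO arrays.

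AT2G33370 had signals of 1742, 1273 and 1279 in OE and 2397, 3633 and 3191 in KO, a log2 fold change of -1.09 (SE 0.19). AT3G06680 was at 872, 542 and 773 in OE and 1193, 1832 and 1781 in KO, and its log2 fold change was -1.12 (SE 0.22). In both, OE replicate 1 was the highest OE array and KO replicate 1 the lowest KO array. AT5G02610 had the smallest gap of the group, with 1021, 494 and 624 in OE against 1159, 1805 and 1312 in KO. The other large-subunit genes, AT2G20450, AT2G37600 and AT4G13170, had log2 fold changes of -1.04, -1.06 and -1.03. AT2G39390 averaged 465 ± 57.3 in OE and 954 ± 187 in KO (SD, n = 3 each).

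Of the 3 genes of the small cytosolic subunit, AT4G30800 and AT3G57490 had the lowest log2 fold changes after AT4G30330, and the largest SEs of the 34 genes in the down table. AT3G57490 (chromosome 3, 21279823 to 21280887, minus strand) had signals of 169, 177 and 265 in OE against 364, 804 and 414 in KO. KO replicate 2 stood far above the other KO arrays, and the log2 fold change was -1.25 (SE 0.30). AT4G30800 was at 84.1, 76.1 and 107 in OE and 139, 348 and 256 in KO, a log2 fold change of -1.25 (SE 0.31). EMB1080, a gene named for the arrest of its mutant embryos, had 2335, 1059 and 1443 in OE and 2559, 3490 and 3604 in KO. Its OE replicate 1 almost reached KO replicate 1, and the log2 fold change was -1.05 (SE 0.27).

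A pair of genes is annotated both as structural constituents of the cytosolic ribosome and to translational elongation, the step in which the growing peptide is lengthened. AT5G47700 had signals of 1782, 964 and 1324 in OE against 2221, 3338 and 3278 in KO, a log2 fold change of -1.13 (SE 0.24). AT2G40010 was at 89.1, 42.6 and 73.8 in OE and 129, 187 and 172 in KO, a log2 fold change of -1.11 (SE 0.27). The order of the 3 OE arrays was the same in both genes, with replicate 1 highest and replicate 2 lowest.

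Of the structural constituents, 3 carry no term for the cytosolic ribosome. AT3G58660, whose protein is also placed in the nucleolus, had signals of 147, 122 and 173 in OE against 284, 391 and 344 in KO. The groups were well apart, by a factor of 1.64 between the nearest arrays, and the log2 fold change was -1.12 (SE 0.19). AT5G64650 was at 197, 115 and 162 in OE and 288, 382 and 411 in KO, with a log2 fold change of -1.13 (SE 0.22). AT3G06040, annotated to a large ribosomal subunit, had 315, 232 and 261 in OE and 412, 577 and 697 in KO, with means of 270 ± 41.9 in OE and 562 ± 143 in KO (SD, n = 3 each).

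Translation proteins outside the ribosome itself included the gene with the tightest OE values. AT4G02930 (chromosome 4, 1295750 to 1298354, minus strand), annotated as a translation elongation factor of mitochondria, had signals of 289, 287 and 297 in OE against 505, 667 and 708 in KO. The mean was 291 ± 5.27 in OE and 627 ± 107 in KO (SD, n = 3 each), and the log2 fold change was -1.05 (SE 0.16). AT1G52930, to which the tables assign aminoacyl-tRNA ligase activity by electronic annotation alone, which may be outdated, was at 339, 365 and 402 in OE and 653, 955 and 1061 in KO. Its log2 fold change was -1.21 (SE 0.19), and its nearest OE and KO arrays differed by a factor of 1.62.

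The initiation factor gene eIFiso4G2 encodes a scaffold that joins the cap-binding protein to the rest of the plant-specific isoform of the initiation complex. It had signals of 373, 199 and 180 in OE against 405, 513 and 531 in KO. OE replicate 1 lay close to KO replicate 1 and far above the other OE arrays, and the log2 fold change was -0.97 (SE 0.26).

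All 5 genes of ribosome biogenesis and RNPs were lower in OE. AT4G30330 (chromosome 4, 14836772 to 14837919, minus strand), annotated to a small nucleolar RNP complex, had signals of 187, 97.5 and 184 in OE against 356, 463 and 394 in KO. Of the terms of the rule it carries only ribonucleoprotein complex, and neither nucleolus nor ribosome biogenesis, so a part in ribosome assembly is not annotated. Its log2 fold change of -1.33 (SE 0.24) was the lowest among the 35 genes, and its gap between the nearest arrays, 1.90-fold, the widest of the 34 in the down table. AT3G03920 is annotated to the box H/ACA RNP, which guides the conversion of uridine to pseudouridine in ribosomal RNA. It was at 301, 265 and 375 in OE and 531, 801 and 897 in KO, a log2 fold change of -1.18 (SE 0.22).

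AT4G12600, an RNA-binding protein of the RNP complex, had 733, 540 and 706 in OE and 1140, 1730 and 1590 in KO, a log2 fold change of -1.14 (SE 0.19). Its OE and KO arrays were apart by a factor of 1.56. AT3G06530, annotated to ribosomal RNA processing, and the GTPase gene AT1G06720 had the smallest changes of the 34 genes in the down table. Their log2 fold changes were -0.95 (SE 0.22) and -0.91 (SE 0.21).

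Among the genes placed in the nucleolus alone, 9 of 10 were lower in OE. NOP56 (AT1G56110, chromosome 1, 20984543 to 20986893, minus strand) encodes a core protein of the box C/D RNPs, which guide methylation of ribosomal RNA. It had signals of 505, 475 and 468 in OE against 684, 1298 and 1628 in KO. The OE arrays lay close together at 482 ± 19.7 and the KO arrays far apart at 1203 ± 479 (SD, n = 3 each), and the log2 fold change was -1.20 (SE 0.28).

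The histone deacetylases HDT4 and HDA3 (also called HDT1) belong to a plant-specific family found in the nucleolus. HDT4 was at 177, 111 and 128 in OE and 267, 405 and 327 in KO, a log2 fold change of -1.18 (SE 0.22). HDA3 had a log2 fold change of -1.16 (SE 0.29), with means of 188 ± 23.1 in OE and 467 ± 189 in KO (SD, n = 3 each). As in NOP56, the spread of HDA3 came mostly from KO, where replicate 1 was at 265 and replicate 3 at 641.

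SWA1 and PUM24 take part in processing of ribosomal RNA, SWA1 as a protein with WD repeats and PUM24 as an RNA-binding protein of the Pumilio family. Their log2 fold changes were -1.10 (SE 0.25) and -1.08 (SE 0.21). OLI2, annotated as a methyltransferase and tied to cell number in leaves, had one of -1.05 (SE 0.27), and the helicase gene AT3G18600 one of -1.04 (SE 0.26). AT5G48240, which is known here only by its place in the nucleolus, was at -1.02 (SE 0.28).

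RACK1C encodes a scaffold protein with WD repeats, a kind known to bind the small ribosomal subunit, though the tables place it in the nucleolus. Its signals were 1106, 574 and 771 in OE against 1269, 1593 and 1950 in KO, a log2 fold change of -0.99 (SE 0.25). OE replicate 1 was its highest OE array and replicate 2 its lowest, an order found in 18 of the 34 genes of the down table.

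AT1G76600, the only member in the up table, is annotated to the nucleus and nucleolus with no further function. It had signals of 1654, 1091 and 2564 in OE against 225, 805 and 571 in KO. The mean was 1769 ± 743 in OE and 534 ± 292 in KO (SD, n = 3 each), and the log2 fold change was 1.79 (SE 0.45). Its arrays spread widely in both genotypes, and OE replicate 2 stood only a little above KO replicate 2.

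**Figure D2:**
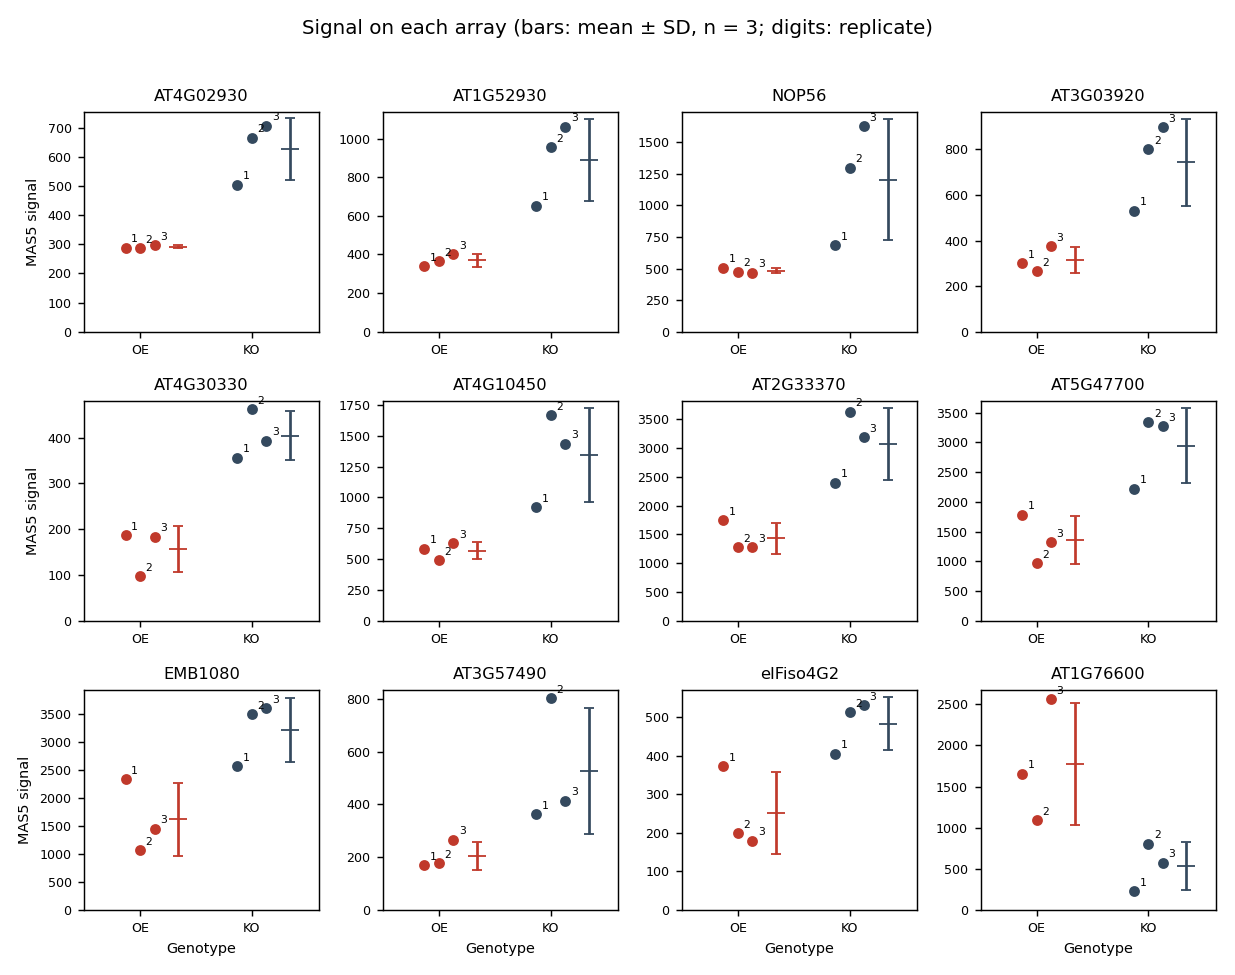
MAS5 signal (linear scale from 0) of 12 members on the 3 OE arrays (left in each panel) and the 3 KO arrays (right), with the replicate number beside each point and the mean ± SD (n = 3) as a bar. AT4G02930 and NOP56 show tight OE values, EMB1080 and eIFiso4G2 an OE replicate 1 close to KO replicate 1, and AT1G76600 higher OE values.

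The fold changes fell in a narrow band, whose weaker edge follows from the authors' selection by fold. Over the 34 genes of the down table the log2 fold change ran from -1.33 to -0.91 with a median of -1.10, and the median SE of the 35 genes was 0.245. The 191 other tested probe sets of that table had a median of -1.07 and reached -2.06, with 13 below -1.5, against 0 of the 34 genes. Over all 15922 probe sets tested the median was -0.08. The structural constituents had a median of -1.11 and the other 17 genes of the down table one of -1.08.

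**Figure D3:**
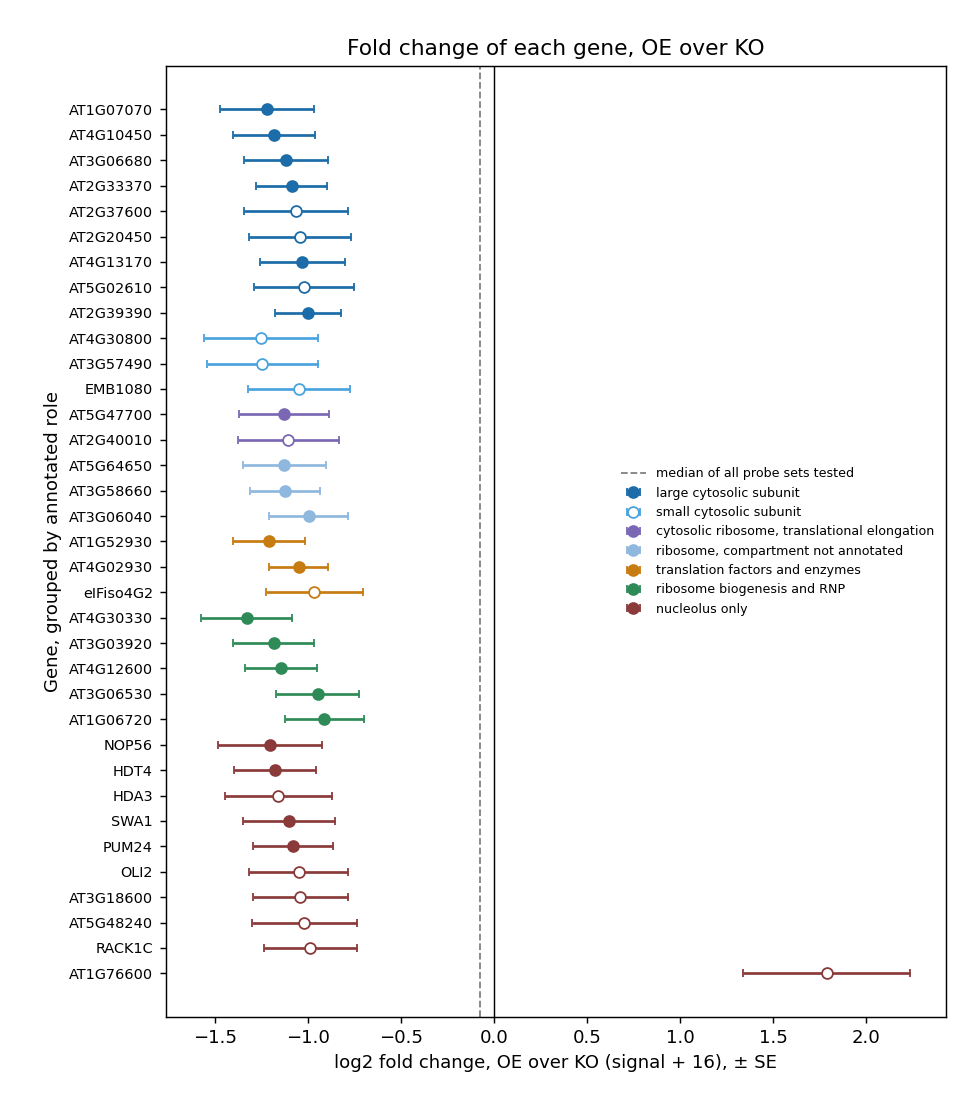
Log2 fold change, OE over KO, of each of the 35 genes on the log2(signal + 16) scale, with its SE (n = 3 arrays per genotype), grouped and coloured by role; filled points had a limma adjusted p under 0.05. The 34 genes of the down table lie between -1.33 and -0.91, left of the median of all probe sets at -0.08 (dashed line), and AT1G76600 lies at 1.79.

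In limma, with Benjamini-Hochberg adjustment over all probe sets tested, 21 of the 35 genes passed an adjusted p of 0.05 with lower levels in OE, where 1.84% of all probe sets tested were. The count was 0 for higher, against 3.03% of all, while 1 member, AT1G76600, was higher at an unadjusted p under 0.05 (10.6% of all). Since the authors listed these genes from the same contrast, the counts describe the list and support nothing. The genes called lower were 10 of 17 structural constituents, 5 of 5 of ribosome biogenesis and RNPs, 2 of 3 translation factors and enzymes (AT4G02930 and AT1G52930, whose place here rests on that electronic annotation), and 4 of 10 of the nucleolus alone. In the small cytosolic subunit 0 of 3 were. All 3 had an unadjusted p under 0.05, as did all 34 genes of the down table, while 16.2% of all probe sets were lower at that p. The authors' unadjusted p limit on the same arrays had already selected for this.

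These calls depended on single arrays. Without OE replicate 2, OE replicate 3 or KO replicate 2, 0 genes were called lower, and 2 were without KO replicate 3 (AT1G52930 and AT4G02930). The shares of all probe sets tested that were called lower were then 0.0502%, 0.0754%, 0.044% and 0.232%. Without OE replicate 1 the count was 23, against 3.67% of all, and without KO replicate 1 it was 32, against 5.38% of all. With each array left out in turn all 34 genes kept a log2 fold change below 0 and an unadjusted p under 0.05 (16.2% of all probe sets tested were lower at that p with all arrays), and the median log2 fold change of the 35 genes lay between -1.28 and -0.99. With a common variance prior in place of the trend on mean level 3 genes were called lower, against 0.27% of all, and without the filter on dim probe sets 8 were, against 0.334% of all. In these settings the count was low where calls over all probe sets were few, and high where they were many.

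**Figure D4:**
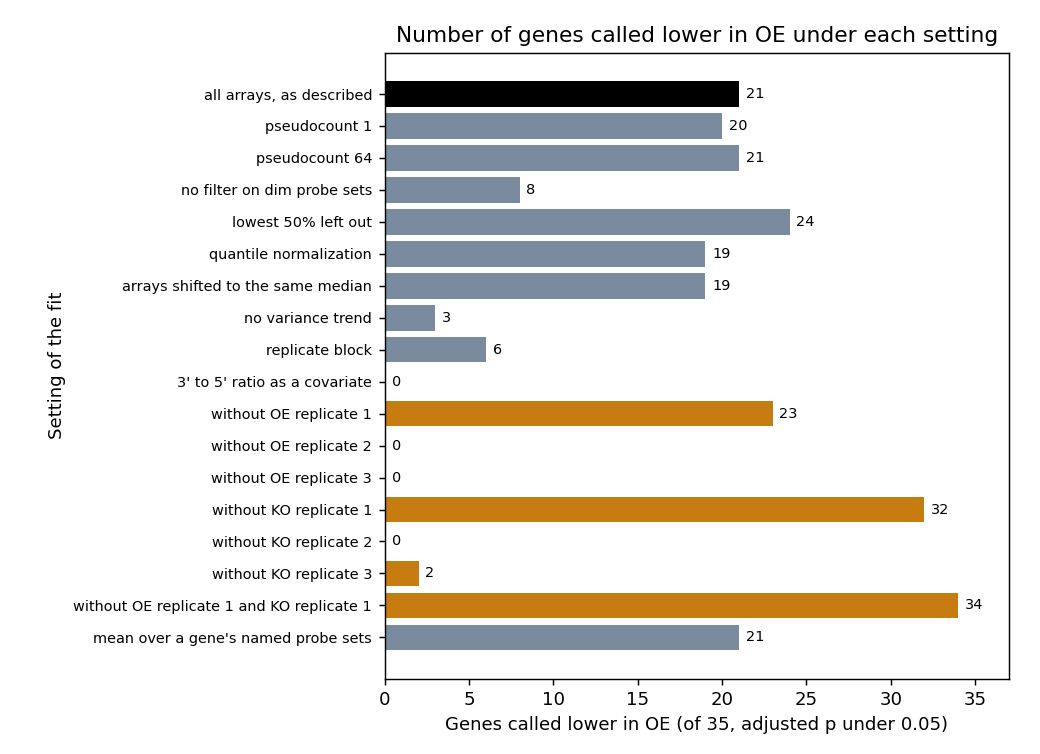
Number of the 35 genes called lower in OE (limma, adjusted p under 0.05; bars from 0) with all arrays (black), under other settings (grey) and with arrays left out (orange). The count is 21 with all arrays, 32 without KO replicate 1, and 0 without OE replicate 2, OE replicate 3 or KO replicate 2.

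Among the KO arrays most of the genes had the same lowest array. KO replicate 1 was the lowest KO array for 33 of the 34 genes (97.1%), the exception being AT2G37600. It was the lowest for 68.1% of the rest of the down table and for 39.3% of all probe sets tested. Relative to the KO mean of each gene, the 17 structural constituents had median log2 deviations of -0.34, 0.21 and 0.13 on KO replicates 1, 2 and 3. The other 17 of the 34 genes had -0.40, 0.17 and 0.22. The rest of the down table had -0.29, 0.12 and 0.13, so the low KO replicate 1 was not particular to these genes.

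Among the OE arrays the structural constituents and the other genes of the down table had different profiles. OE replicate 2 was the lowest OE array for 16 of 17 structural constituents and for 8 of the other 17 genes (47.1%), against 54.5% of the rest of the down table and 33.7% of all probe sets tested. OE replicate 1 was the highest for 13 and for 9 (52.9%) of them, against 57.1% of the rest of the table and 35.1% of all. The shares of the other 17 genes were no higher than those of the rest of the table. The median log2 deviation from the OE mean was 0.32, -0.38 and 0.01 on OE replicates 1, 2 and 3 for the structural constituents. It was 0.06, -0.04 and 0.03 for the other 17 genes, and 0.20, -0.18 and -0.02 for the rest of the down table. The 3 small-subunit genes, which are structural, had medians of -0.06, -0.18 and 0.24. The 5 genes of ribosome biogenesis and RNPs, which are not, had 0.08, -0.27 and 0.26, with OE replicate 2 lowest for 4. These differences between groups of genes were not tested, since genes measured on the same arrays are not replicates.

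Signs of RNA quality differed between the arrays as well. The mean log2 ratio of 3' to 5' signals over 6 pairs of actin, GAPDH and ubiquitin control probe sets, which is higher where transcripts are shortened from the 5' end, was 1.97, 1.94 and 1.73 in OE and 1.80, 1.57 and 1.53 in KO. The ratio of 3 of the 6 pairs was higher on each OE array than on each KO array. In the mean the genotypes overlapped, since OE replicate 3 was below KO replicate 1 (two-sided exact permutation p = 0.2; 0.1 is the smallest that 3 against 3 arrays can give). KO replicate 1 thus had the highest ratio of the KO arrays and the lowest levels of the genes. OE replicate 1 had the highest ratio of the OE arrays and the highest median level of the structural constituents. OE replicate 2 had nearly the same ratio (1.94 against 1.97) and their lowest median level. Whether ratio and level are related was not tested.

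With that ratio as a covariate 0 genes were called lower, against 0.119% of all probe sets tested. Of the 34 genes 17 were lower at an unadjusted p under 0.05 in limma. The share of all probe sets lower at that p was not computed for this fit. Without the covariate it was 16.2%, and the genes had been selected on this contrast. The median log2 fold change of the 35 genes was -0.76. The covariate raised the median SE of the genes to 0.342. The ratio averaged 1.88 in OE and 1.63 in KO, so this fit cannot fully tell ratio and genotype apart. Whether RNA quality accounts for the lost calls was not tested. All 34 genes kept a log2 fold change below 0.

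**Figure D5:**
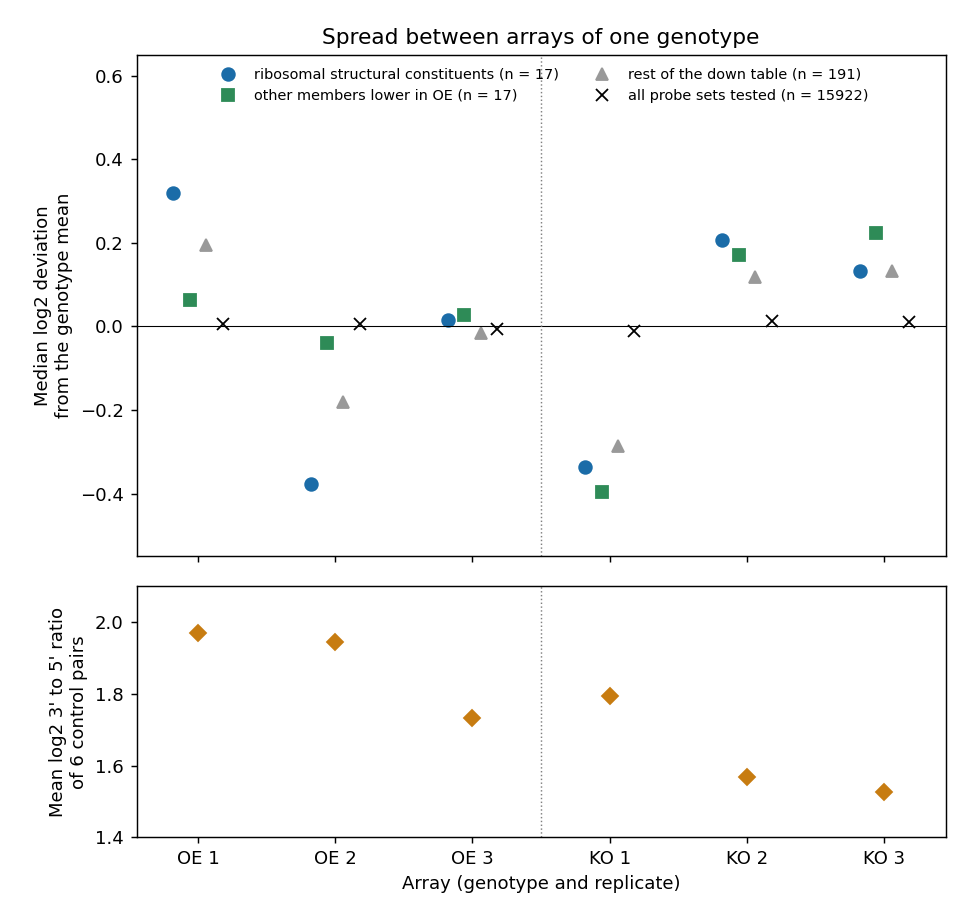
Upper panel: median over genes of the log2(signal + 16) deviation from the mean of the same genotype on each array, for the 17 structural constituents, the other 17 genes of the down table, the rest of that table (191 probe sets) and all 15922 probe sets tested. Lower panel: mean log2 3' to 5' ratio of 6 control pairs (axis from 1.4). KO replicate 1 has the lowest gene levels and the highest ratio among the KO arrays, at -0.34 for the structural constituents and 1.80.

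The arrays also carry control probe sets for ribosomal RNA, which the rule did not touch. The 25S ribosomal RNA signal was 6730, 7790 and 5951 in OE against 6991, 5277 and 5701 in KO, a log2 difference of 0.19 (two-sided exact permutation p = 0.3). That of 5S ribosomal RNA was 31.8, 21.6 and 29.8 in OE and 22.1, 25.1 and 25.0 in KO (log2 difference 0.19, exact permutation p = 0.4). Neither separated the genotypes. Labelling from total RNA normally starts at the poly(A) tail, which ribosomal RNA lacks, so these signals are no measure of its abundance in the plants.

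A further 3 probe sets of the down table carry the same terms but match several genes, and were left out of the 35. The probe set for AT2G40205, AT3G08520, AT3G11120 and AT3G56020 had signals of 908, 627 and 957 in OE against 1707, 2621 and 2043 in KO. The one for AT2G40510 and AT2G40590 had 1420, 1211 and 1361 in OE and 2293, 3063 and 2691 in KO. The one for AT3G06320 and AT5G18790 had 289, 217 and 225 in OE and 402, 624 and 479 in KO. All 3 were lower on every OE array than on every KO array, as were 18.3% of all probe sets tested. They too had been listed by the authors from this same contrast. Each of the 35 members has a probe set whose identifier marks no shared gene, yet whether transcripts of paralogous ribosomal protein genes also bound it was not tested.

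Few other genes of the pathway could be followed. Of 14 pathway loci looked up (fibrillarin, nucleolin, dyskerin, NHP2, NOP10, NOP56, NOP58, RPS6, TOR, eIF4E and eIF4A1), only NOP56 had a named probe set. Here that means a probe set assigned to 1 gene in the authors' up or down tables. The other loci were not listed there in this way, and their levels were not looked up. The symbol or synonyms of 111 loci in the reference gene table name a ribosomal, nucleolar or translation protein. Of these 2 had a named probe set, NOP56 and eIFiso4G2, both members. That search by name found only these 2 of the 35 members, so it does not measure what share of the pathway was listed. The remaining genes of the pathway were not analysed here, so the counts above are those of genes the authors listed and not of all ribosomal genes. The 35 genes lie on all chromosomes of the nucleus, with 5, 8, 11, 6 and 5 on chromosomes 1 to 5, and 0 pairs are neighbours among protein-coding genes.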

How the data were processed

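Total RNA of 3 OE and 3 KO samples was measured on ATH1 arrays. The value table deposited by the authors holds 1 intensity per probe set and array, made with MAS5 per the submitters' processing notes, whose version the notes leave out. The authors' deposited up and down tables give an unadjusted p-value and an absolute fold ratio per probe set, and the sources used here do not name the test behind them. Their 48 columns of per-array values match no sample label and were not used. Genes were named through the tables' gene identifiers and NCBI RefSeq's gene table (TAIR10.1, names and gene order only).

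The fit used limma 3.58.1 in R 4.3.3 (lmFit, eBayes with a trend) on log2(signal + 16), with genotype as the only term, over 15922 probe sets, after control probe sets and the lowest 30% by mean were left out. Fold changes on this scale understate the change of dim probe sets. P-values were two-sided and adjusted by Benjamini-Hochberg over all probe sets, with a threshold of 0.05. The steps were tested on simulated arrays. Exact permutation tests used SciPy 1.17.1. Precision is limited by having 3 arrays per genotype.

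Members and lists were chosen with earlier results of these data known. Roles were read from the tables' ontology identifiers. Values on every array are given for the member of the up table, the 10 with the largest log2 fold change in either direction and up to 3 of the highest mean signal per role, 23 in all. Arrays with the same replicate number did not deviate together, with correlations over probe sets of -0.24, -0.12 and 0.06, so they were not treated as pairs.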

Additional observations from a re-analysis of the deposited data

How the results depend on the processing

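All 34 genes of the down table kept a log2 fold change below 0, and AT1G76600 one above 0, under each alternative in which they were tested; 5 members were dim enough to be left out with the lowest 50%. The number called lower in OE was 8 with no filter on dim probe sets, 3 with no variance trend, 6 with the replicate block and 0 with the 3' to 5' ratio as a covariate, where 0.334%, 0.27%, 0.232% and 0.119% of all probe sets tested were called lower, against 1.84% in the fit of the report. With 1 array left out in turn it ran from 0 to 32, and the median log2 fold change from -1.28 to -0.99. Without OE replicate 1 and KO replicate 1 together, an alternative chosen after seeing the data, it was 34, with a median log2 fold change of the 35 genes of -1.40; 1442 of all probe sets were then called lower, against 293 with all arrays. The number called higher was 1 with the lowest 50% left out, with arrays shifted to the same median and with the ratio covariate. Of all probe sets tested, 552 of 11373, 794 of 15922 and 189 of 15922 were then called higher. The ratio covariate moved the median log2 fold change to -0.76. The shift to the same median moved the median of all probe sets tested to 0.09 from -0.08 and that of the 35 genes to -0.92. With it 19 were called lower, against 0.898% of all probe sets tested. The causes of these changes were not tested. Over the other settings the count called lower was 19 to 24. The 24 were out of 30 genes tested with the lowest 50% left out, where 3.56% of all probe sets tested were called lower.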
